A study of Mus musculus with 6 samples.

Results

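The elastic fibre genes are those of elastin, the fibrillins, the fibulins and the crosslinking enzymes of the aortic wall. They were taken by symbol from the deposited table, and 9 of the 10 names in the rule (Eln, Fbn1, Fbln2, Fbln5, Efemp2, Emilin1, Lox, Loxl1 and Mfap4) were among its 22956 rows. Fbn2 was not analysed here. The rule used no measured value, and all 9 genes passed the low-count filter, as did 16654 genes in all.

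RNA was sequenced from 6 samples labelled as smooth muscle cells of the aorta of C57B6 mice, aged 30 weeks and fed a western diet, a high-fat feed that brings on atherosclerosis, for 20 weeks. The 3 WT samples have the genotype WT/mTmG/ Myh11ERT2. The 3 knockout samples have the genotype miR-21fl/flmTmG/Myh11ERT2, in which both copies of the miR-21 gene carry sites for deletion. Both groups thus share the mTmG reporter, which changes colour where Cre recombinase has acted, and the inducible driver under the Myh11 promoter, which is active in smooth muscle, so that deletion would be limited to that cell type. Whether the deletion took place was not checked here, and no label tells how or when the driver was induced. No group on a normal diet was analysed here. The labels do not say whether replicates are separate animals, and the p-values therefore cover the spread of these 6 samples alone, which could be technical.

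Elastic fibres give the aorta its recoil. Smooth muscle cells secrete soluble tropoelastin, which is laid down on a scaffold of fibrillin microfibrils and crosslinked through its lysines by enzymes of the lysyl oxidase family, while fibulins and emilin bring these parts together. Most of this assembly takes place before adulthood, and the finished fibres turn over very slowly, so that RNA levels in an adult wall do not give the amount of fibre.

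miR-21 is a short RNA that lowers messages whose 3′ untranslated region (UTR) pairs with its seed, bases 2 to 8. Its mature form, from RefSeq (GRCm38.p6, chromosome 11, 86584120 to 86584141, minus strand), is shown with the seed in capitals, above the only stretch in the 3′ UTRs of these 9 genes that was found to pair with its bases 2 to 7, with the matching bases in capitals.
miR-21a-5p: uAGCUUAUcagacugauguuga
Eln 3′ UTR: cctagtaccacTAAGCTggctg
The Eln stretch lies in the 3′ UTR at chr5:134703068-134703089, minus strand (mm10, the same assembly as GRCm38), and its 6-base match begins at base 703 of 1188. The 3′ UTR of 1 transcript per gene was searched on the transcript's own strand for ATAAGCT, which pairs with the whole seed and is counted also within ATAAGCTA, for TAAGCTA and for TAAGCT, which lies within all of these. None of the 9 genes held ATAAGCT or TAAGCTA, which 7.05% and 6.71% of the 15070 genes searched did. Eln held TAAGCT once, as did 23.8% of the genes searched one or more times. A match is a description of the letters, and a missing match says only that these letters are not in this window.

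No elastic fibre gene passed the test for a difference between knockout and WT. Of the 9 genes, 0 passed edgeR's quasi-likelihood test at a Benjamini-Hochberg adjusted p under 0.05, with adjusted p from 0.866 to 0.978, against 0% of all 16654 genes tested. At an unadjusted p under 0.05 the count was also 0 of 9, against 5.96% of all genes. DESeq2's Wald test called 0 of 9 (smallest adjusted p 0.999), against 0.447% of all genes. In 0 of 9 genes did the libraries of the groups lie apart without overlap, against 12.1% of all genes. The log2 fold change, knockout over WT, was below 0 for 7 of the 9 genes, against 50.6% of all genes, and its median was -0.08, against -0.00 over all genes.

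**Figure D1:**
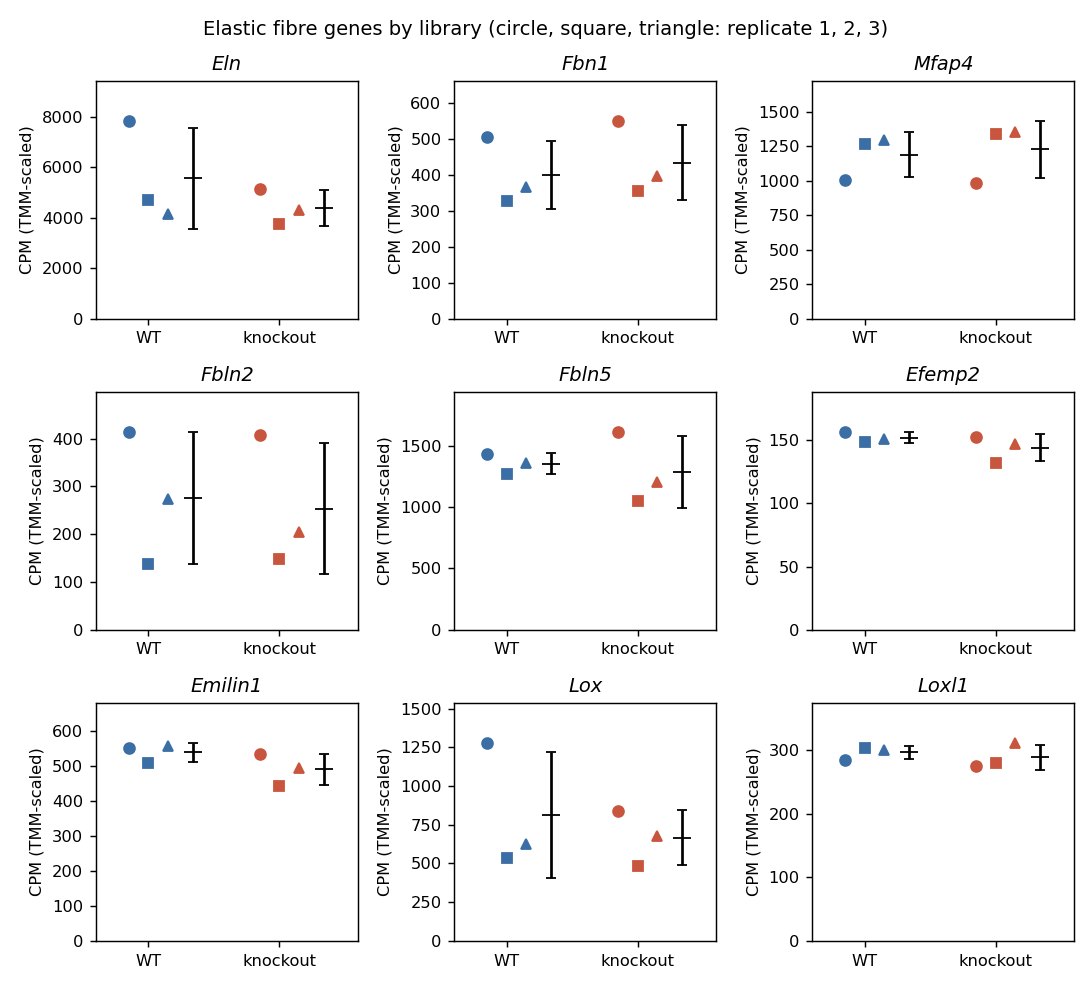
TMM-scaled CPM (counts scaled to the library total, y axis from 0) of each elastic fibre gene in the 3 WT and 3 knockout libraries, with the mean and SD of each group in black. The groups overlap in all 9 panels, and WT 1 (circle) stands far above the other WT libraries for Eln and Lox.

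Eln encodes tropoelastin, the extensible core of the fibre (chromosome 5, 134702593 to 134747323, 37 exons in the transcript used). Its level in CPM, estimated counts scaled to the library total with TMM factors, which correct for a few abundant genes, was 7841, 4686 and 4157 CPM in WT 1, 2 and 3, against 5131, 3728 and 4315 CPM in knockout 1, 2 and 3. WT 1 was the highest library, and the other WT libraries lay within the range of the knockout. It averaged 5561 ± 1992 CPM in WT against 4391 ± 704 CPM in the knockout (n = 3 each, SD). The log2 fold change was -0.34 ± 0.26 (SE), with a 95% interval of -0.96 to 0.28 and an edgeR adjusted p of 0.872. Without WT 1 it was -0.01. Eln alone made up 0.783% of the counts of WT 1 and 0.373% to 0.506% of those of the other libraries.

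Fbn1 encodes fibrillin-1, the main protein of the microfibril scaffold and the gene of Marfan syndrome (chromosome 2, 125300594 to 125507993, 65 exons). It had 506, 326 and 365 CPM in WT 1, 2 and 3, against 550.4, 354 and 398 CPM in knockout 1, 2 and 3. In each group the first library was the highest, and the rest of each group lay between 326 and 398 CPM. Its log2 fold change was 0.12 ± 0.22 (SE), and it was -0.09 without knockout 1 and -0.01 without WT 2. Mfap4, a microfibril-associated protein that binds elastin and fibrillin (chromosome 11, 61485431 to 61488900), had 1006, 1271 and 1298 CPM in WT 1, 2 and 3, against 988, 1342 and 1357 CPM in knockout 1, 2 and 3. Here the first library of each group was the lowest, the opposite of Fbn1. The log2 fold change of Mfap4 was 0.04 ± 0.16 (SE), with values from -0.06 to 0.17 when 1 library was left out.

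The fibulins and emilin link elastin to the microfibrils. Fbln5, whose product tethers elastin to cells and to crosslinking enzymes (chromosome 12, 101746565 to 101819055), had 1432, 1266 and 1359.8 CPM in WT 1, 2 and 3, against 1612, 1046 and 1204 CPM in knockout 1, 2 and 3. All WT libraries lay inside the range of the knockout libraries, and the fold change was -0.07 ± 0.17 on the log2 scale (SE). It was -0.27 without knockout 1 and 0.06 without knockout 2. Efemp2 encodes fibulin-4, which brings lysyl oxidase to tropoelastin (chromosome 19, 5473973 to 5481853), and it had 157, 148 and 151 CPM in WT 1, 2 and 3, against 153, 132 and 147 CPM in knockout 1, 2 and 3. Apart from knockout 2, its libraries lay between 147 and 157 CPM. For Efemp2 the log2 fold change was -0.08 ± 0.07 (SE), with a 95% interval of -0.25 to 0.10 and values from -0.13 to -0.02 with 1 library left out. Emilin1, a glycoprotein found where elastin meets the microfibrils (chromosome 5, 30913402 to 30921277), had 552, 509 and 559 CPM in WT 1, 2 and 3, against 534, 444 and 496 CPM in knockout 1, 2 and 3. Knockout 1 lay above WT 2, so that the groups overlapped. Emilin1 came nearest to the threshold of the 9 genes (edgeR adjusted p = 0.866), at a log2 fold change of -0.14 ± 0.09 (SE), with values from -0.20 to -0.07 when 1 library was left out.

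Fbln2 encodes fibulin-2, a fibulin of the vessel wall that binds elastin and fibrillin (chromosome 6, 91212455 to 91272540). It had 415, 137 and 274 CPM in WT 1, 2 and 3, against 409, 149 and 204 CPM in knockout 1, 2 and 3. The groups covered nearly the same range, and the libraries within each group lay further apart than the group means of 275 ± 139 and 254 ± 137 CPM (n = 3 each, SD). The log2 fold change was -0.12 ± 0.51 (SE), with a 95% interval of -1.36 to 1.12, and a difference of 2-fold in either direction lay within that interval. Without WT 1 the value was 0.30, and without knockout 1 it was -0.65.

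Lox encodes lysyl oxidase, the copper enzyme that starts the crosslinking of elastin and collagen (chromosome 18). It had 1278, 537 and 624 CPM in WT 1, 2 and 3, against 839, 483 and 676 CPM in knockout 1, 2 and 3. As with Eln, WT 1 was the highest library and knockout 1 the next. It averaged 813 ± 405 CPM in WT against 666 ± 178 CPM in the knockout (n = 3 each, SD), and the log2 fold change of -0.29 ± 0.37 (SE) turned to 0.20 without WT 1. Loxl1, a related oxidase tied to elastin upkeep (chromosome 9, 58287738 to 58313186), had 285, 303 and 300.1 CPM in WT 1, 2 and 3, against 275, 279 and 311 CPM in knockout 1, 2 and 3. It did not follow Lox, since WT 1 was the lowest of the WT libraries. The log2 fold change of Loxl1 was -0.04 ± 0.08 (SE), with a 95% interval of -0.22 to 0.14 and values from -0.10 to -0.01 with 1 library left out.

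**Figure D2:**
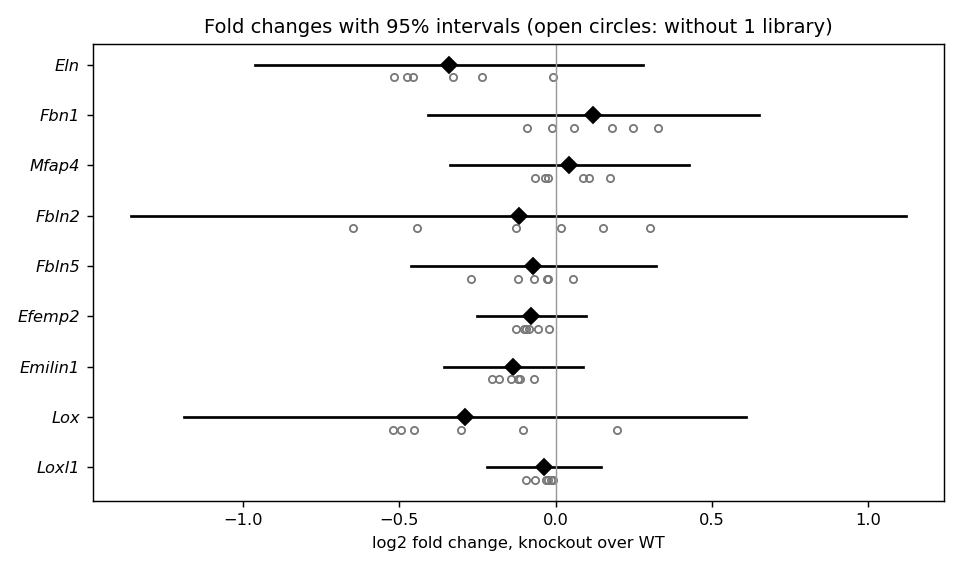
Log2 fold change (x axis, knockout over WT) of each elastic fibre gene (y axis) from edgeR, as a diamond with its 95% interval as a line; open circles give the value with 1 library left out. All 9 intervals include 0, and the interval of Fbln2, from -1.36 to 1.12, is the widest.

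The precision differed widely between the genes. For 5 of them, Fbln5, Efemp2, Emilin1, Loxl1 and Mfap4, the 95% interval lay within a 1.5-fold difference in either direction. Linear bounds for Loxl1 were 0.859-fold to 1.10-fold and for Efemp2 0.839-fold to 1.07-fold. For Eln the bounds were 0.514-fold and 1.21-fold, and for Lox 0.439-fold and 1.53-fold, so that differences of the size measured, or somewhat larger, were not detectable with these libraries. The lowest count of any elastic fibre gene in a library was 5595, for Fbln2 in WT 2, which carries a counting error of 1.34%, far below the spread of that gene between libraries.

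The genes ranged from variable to steady in their spread within groups. The SD of log2 CPM within groups was 0.78 for Fbln2, 0.55 for Lox, 0.38 for Eln and 0.33 for Fbn1, above 98.3%, 97.3%, 94.1% and 92.4% of the 1782 genes with a mean of at least 100 CPM, whose median SD was 0.11. It was 0.23 for both Fbln5 and Mfap4, above 82.7% and 82.6% of those genes. The lowest values were those of Emilin1 at 0.11, Efemp2 at 0.08 and Loxl1 at 0.08, above 49.4%, 34.6% and 30.6% of those genes. From the lowest to the highest of the 6 libraries Fbln2 spanned 3.02-fold, Lox 2.65-fold and Eln 2.10-fold, against 1.13-fold for Loxl1.

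**Figure D3:**
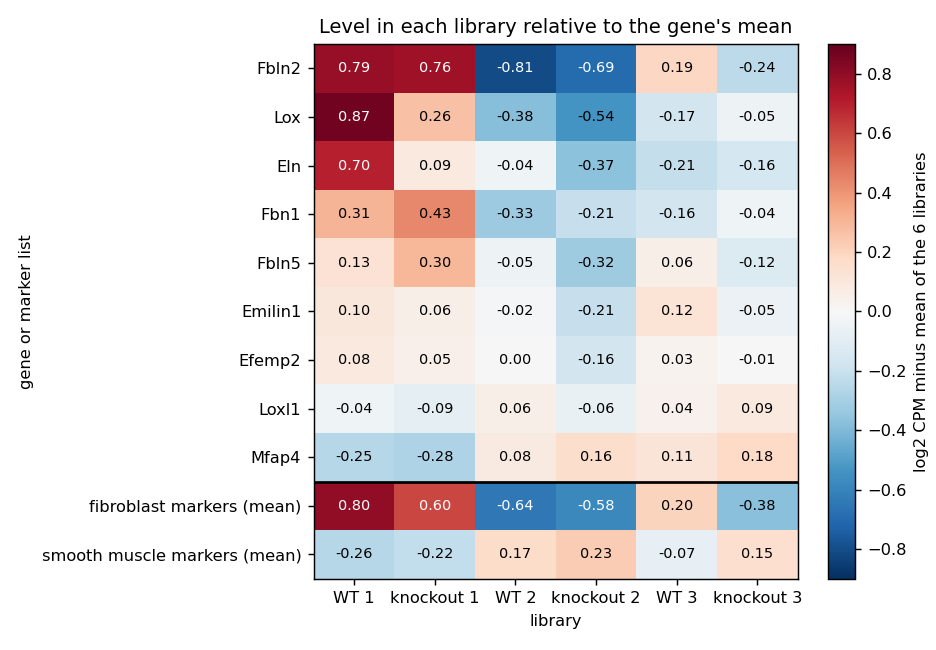
Log2 CPM of each elastic fibre gene (rows) in each library (columns, ordered by replicate number) minus the mean of the gene over the 6 libraries, with the mean of 13 fibroblast and 10 smooth muscle markers below the line; red is higher and blue lower. WT 1 and knockout 1 are high for Fbln2, Lox, Fbn1 and the fibroblast markers and low for Mfap4 and the smooth muscle markers.

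The libraries that were high in the variable genes were not those of 1 genotype. WT 1 and knockout 1 were the highest libraries of the 6 for Eln, Lox, Fbn1, Fbln2, Fbln5 and Efemp2, and the lowest for Mfap4. Knockout 2 was the lowest for Eln, Lox, Fbln5, Efemp2 and Emilin1. Relative to its mean over the 6 libraries, Fbln2 stood at log2 levels of 0.79 in WT 1 and 0.76 in knockout 1, of -0.81 and -0.69 in WT 2 and knockout 2, and of 0.19 and -0.24 in WT 3 and knockout 3.

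Markers of adventitial fibroblasts, which also make elastic fibre proteins, moved the same way as Fbln2 on average. In WT 3 the markers stood at 0.20, but Eln, Fbn1 and Lox at -0.21, -0.16 and -0.17. Fbln5, Efemp2 and Emilin1 stood at 0.06, 0.03 and 0.12 in WT 3. All 13 listed markers passed the filter, and their mean relative log2 level was 0.80 in WT 1 and 0.60 in knockout 1, -0.64 and -0.58 in WT 2 and knockout 2, and 0.20 and -0.38 in WT 3 and knockout 3. Of these, Clec3b was highest in WT 3 (12.4 CPM) and Dpep1 in knockout 2 (2.11 CPM). The summed level of the 13 markers ranged from 3144 to 7014 CPM in WT and from 1459 to 5739 CPM in the knockout. Lum and Dcn made up most of it in every library, and no defining marker was at 0. Lum and Dcn were higher in WT 3 (3577 and 1995 CPM) than in knockout 1 (3130 and 1920 CPM), as was the sum (6207.5 against 5739 CPM). Between the groups, 11 of the 13 fibroblast markers lay lower in the knockout (median log2 fold change -0.27) and 9 of 10 smooth muscle markers higher (median 0.13). Of all genes, 50.6% lay below 0, and 0 of either list passed the adjusted threshold. Myocd, at a log2 fold change of 0.36 ± 0.15 (SE), was the 1 smooth muscle marker of the 10 with an unadjusted edgeR p under 0.05 (0.0469), against 5.96% of all genes. Des, the 1 smooth muscle marker that lay lower, had a log2 fold change of -0.45 ± 0.20 (SE). It was also the 1 marker of the 10 whose groups did not overlap, lower in the knockout as in 5.6% of all genes. The 10 smooth muscle markers, among them Acta2 and Myh11, moved the other way, at -0.26 and -0.22 in WT 1 and knockout 1, 0.17 and 0.23 in WT 2 and knockout 2, and -0.07 and 0.15 in WT 3 and knockout 3. They summed to 24475 to 36576 CPM in WT and 29202 to 38278 CPM in the knockout. The labels do not state whether cells were sorted from the aorta. The part of these cell types in the levels of the elastic fibre genes was not tested, and in such bulk samples fewer cells of a type and less RNA per cell cannot be told apart.

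The other marker lists give the levels of other cell types beside the label of smooth muscle cells. Of 8 endothelial markers, Cdh5, Kdr and Egfl7 were below 1 CPM in every library, while Pecam1 made up most of a summed level of 61.3 to 68.7 CPM in WT and 61.8 to 71.5 CPM in the knockout. Of 7 macrophage markers 3 passed the filter, with summed levels of 3.44 to 17.9 CPM in WT and 3.73 to 18.5 CPM in the knockout, in both groups highest in the first library. The 4 red blood cell genes summed to 267, 40.4 and 10.3 CPM in WT 1, 2 and 3, against 141, 40.4 and 18.1 CPM in knockout 1, 2 and 3, again with the first library of each group the highest. The 5 chondrocyte markers tested summed to 289 to 965 CPM in WT and 144 to 1697 CPM in the knockout, with knockout 1 highest. Among them, Col2a1 had 101, 266 and 124 CPM in WT 1, 2 and 3, against 1217, 30.5 and 3.43 CPM in knockout 1, 2 and 3. Which cells its RNA came from was not tested. Cardiac muscle markers summed to 9.43 to 30.3 CPM over both groups and mesothelial markers to at most 1.31 CPM, and of 6 adipocyte markers Fabp4 alone passed the filter. Library totals ranged from 37787465 to 154384307 estimated counts, and the largest, WT 3, was not at an extreme for any elastic fibre gene but Emilin1, where it was the highest by a small margin.

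The proportion of Lox to Eln varied less than either gene. The level of Lox per kilobase of exon was 0.28, 0.19 and 0.25 of that of Eln in WT 1, 2 and 3, against 0.28, 0.22 and 0.27 in knockout 1, 2 and 3. This ratio spanned 1.43-fold over the 6 libraries, against 2.65-fold for Lox and 2.10-fold for Eln. The same ratio for Loxl1 to Eln spanned 2.06-fold and that for Mfap4 to Eln 2.80-fold. The ratio of Fbn1 to Eln was 0.049 ± 0.0082 in WT against 0.065 ± 0.0054 in the knockout (n = 3 each, SD), with every knockout library, from 0.062 to 0.072, above every WT library, from 0.043 to 0.059. It was the 1 ratio of 10 computed in which the groups did not overlap, a share near the 12.1% of all single genes without overlap. These ratios were chosen after the values were seen and were not tested.

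**Figure D4:**
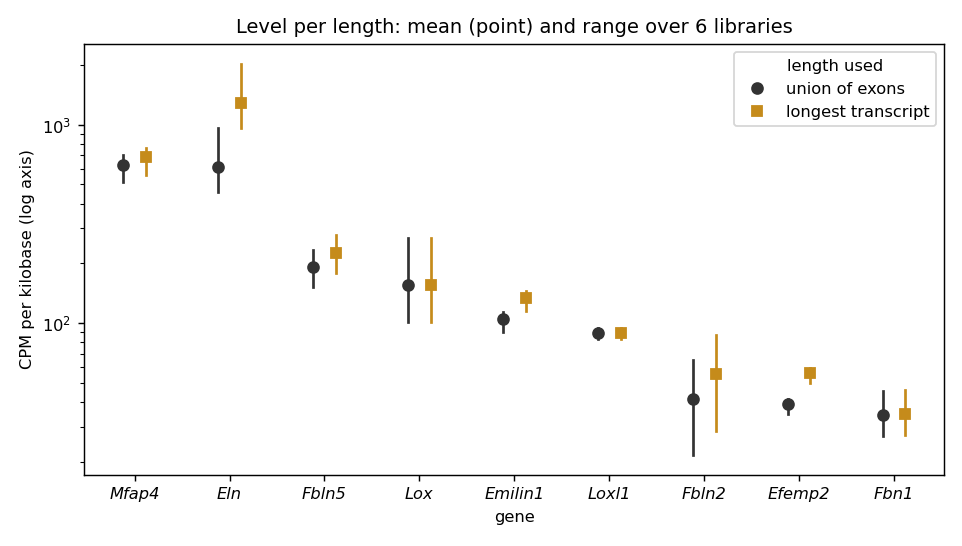
Level of each elastic fibre gene (x axis) in CPM per kilobase (log y axis), as the mean (point) and range (line) over the 6 libraries, with the length taken as the union of exons (dark circles) or the longest transcript (gold squares). Mfap4 and Eln lead with either length, and Fbn1 is the lowest.

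Levels of different genes are compared per kilobase of exon. Mfap4 had 620 ± 83.9 CPM per kilobase in WT against 639 ± 109 in the knockout, and Eln 687 ± 246 in WT against 542 ± 87.0 in the knockout (n = 3 each, SD). Over all libraries they ranked at places 48 and 51 of 16244 genes with a known length. Eln was above Mfap4 in WT 1 and knockout 1 and below it in the other 4 libraries, so their order was not settled on this scale. The exon union of Eln has 8098 bases and its longest transcript 3853, and with the latter Eln was above Mfap4 in all 6 libraries. Fbln5 followed at 191 CPM per kilobase over the 6 libraries, with Lox at 155, Emilin1 at 104 and Loxl1 at 88.6. The ranges of neighbours among these 4 genes overlapped. All 6 libraries placed Loxl1 above Fbln2 at 41.5, Efemp2 at 39.1 and Fbn1 at 34.3 CPM per kilobase, and these last 3 genes overlapped in range.

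In other genes of the pathway, too, none passed the adjusted threshold. Of 19 listed genes of microfibrils and elastic fibres 17 were tested. Of these, 6 lay higher and 11 lower in the knockout, where 50.6% of all genes lay below 0. An unadjusted p under 0.05 was found for 0 of them, against 5.96% of all genes. In 1 gene, Mfap1a, the groups did not overlap, lower in the knockout, as in 5.6% of all genes. Its log2 fold change was -0.09 ± 0.06 (SE), while its near-identical copy Mfap1b had 0.07 ± 0.07 (SE) with overlapping groups. The split of counts between these copies is uncertain. The smallest p was that of Mfap2, a small microfibril protein, with 12.6 ± 2.79 CPM in WT against 9.17 ± 1.91 CPM in the knockout (n = 3 each, SD; log2 fold change -0.46 ± 0.20 SE). Mfap3 had a log2 fold change of -0.17 ± 0.08 (SE). Efemp1, which encodes fibulin-3, had -0.92 ± 0.52 (SE), with 103, 40.6 and 55.1 CPM in WT 1, 2 and 3, against 59.8, 20.3 and 24.6 CPM in knockout 1, 2 and 3. In Efemp1, as in Eln and Lox, the first library of each group was the highest.

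Of 18 listed genes of crosslinking and maturation 16 were tested, of which 1 lay higher and 15 lower, where 50.6% of all genes lay below 0, and 0 passed the adjusted threshold. Atox1, a chaperone that hands copper to the pump supplying lysyl oxidase, had 38.2, 35.9 and 39.5 CPM in WT 1, 2 and 3, against 32.6, 28.6 and 33.9 CPM in knockout 1, 2 and 3. All of its knockout libraries lay below all WT libraries, as in 5.6% of all genes, at a log2 fold change of -0.26 ± 0.08 (SE), an unadjusted edgeR p of 0.0165 and an adjusted p of 0.793. It was the 1 gene of this list with an unadjusted p under 0.05, where 2.01% of all genes were lower. Fkbp10, a chaperone of collagen and tropoelastin, had -0.26 ± 0.12 (SE) and Loxl4, another lysyl oxidase family gene, -0.39 ± 0.21 (SE). The median log2 fold change of the list was -0.15, beside that of -0.27 for the fibroblast markers, and the part of these cells in it was not tested.

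Of 17 listed genes of elastin-degrading proteases and their inhibitors 14 were tested, of which 2 lay higher and 12 lower, again beside 50.6% of all genes below 0. The adjusted threshold was passed by 0 of them, and 0 had an unadjusted p under 0.05, against 5.96% of all genes. The lysosomal protease Ctsl had 405 ± 71.5 CPM in WT against 336 ± 32.3 CPM in the knockout (n = 3 each, SD; log2 fold change -0.27 ± 0.14 SE). Cst3, an inhibitor of such proteases, had -0.27 ± 0.18 (SE) and Serpinb1a, an inhibitor of neutrophil elastase, -0.63 ± 0.46 (SE). The median of the list was -0.27, the same as that of the fibroblast markers, whose part in it was not tested. In all 3 lists the mean relative log2 level was higher in WT 1 and knockout 1 than in any other library.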

How the data were processed

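RNA was measured in 6 libraries, 3 WT and 3 knockout. The table that the authors deposited gives estimated counts of all genes, not normalized, and 43.6% to 54.3% of the values of a library were whole. The submitters' processing notes name mm10, STAR 2.6 and DESeq2, without roles; the counting tool is not given in the sources used here. Near-identical copies, such as Mfap1a and Mfap1b, are therefore uncertain. Columns were matched to samples by sample code, with 0 left over.

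Counts were rounded, filtered with filterByExpr, TMM-scaled and put through the two-sided quasi-likelihood test (robust setting) of edgeR 4.0.16 in R 4.3.3, and p was adjusted over 16654 genes by Benjamini-Hochberg. The SE is the log2 fold change over the square root of F, and 95% intervals use the total residual degrees of freedom. Relative log2 levels used a prior count of 2. Lengths and 3′ UTRs came from GENCODE M21 (GRCm38), matched for 22090 of 22956 genes by symbol and chromosome, with the transcript of best APPRIS rank. The fit was also run on simulated counts of independent libraries. These hold no shift shared by libraries, so that run cannot tell how the test handles one.

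The members and lists were chosen with earlier results of these data known. Named genes were the members, the 3 genes of smallest p in each list and the 5 genes most like Eln. Libraries of 1 group differed by more than sampling noise (mean chi-square of a gene 31.2 to 109). Alternatives were the upper-quartile and DESeq2 scalings, a filter of 1 CPM in 3 samples or none, DESeq2 1.42.0 as the test, voom of limma 3.58.1 with sample weights, a replicate block, leaving out each library and another gene length. Figures used Python 3.11.15 and matplotlib 3.10.9.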

Additional observations from a re-analysis of the deposited data

How the results depend on the processing

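The count of elastic fibre genes called was 0 in all 13 alternatives, as were the counts of the 3 pathway lists, and the smallest adjusted p of any elastic fibre gene was 0.402, with the replicate number as a block. The count over all genes was 73 in DESeq2, 1 with the replicate block and 0 to 1 when 1 library was left out. The median log2 fold change of the 9 genes ranged from -0.20 without knockout 1 to -0.020 without knockout 2, and 6 to 8 of the 9 genes were below 0. No fold change turned sign under another scaling, filter, tool or block. When 1 library was left out, 10 of the values turned sign. The ranges were -0.093 to 0.33 for Fbn1, -0.65 to 0.30 for Fbln2, -0.27 to 0.057 for Fbln5, -0.52 to 0.20 for Lox and -0.065 to 0.17 for Mfap4, and without turning they were -0.52 to -0.01 for Eln, -0.20 to -0.068 for Emilin1, -0.13 to -0.020 for Efemp2 and -0.096 to -0.0094 for Loxl1. Same-numbered libraries have neighbouring sample codes. They deviated together in pairs 1 and 2 (correlations over genes 0.289 and 0.317) and not in pair 3 (-0.0263), and not every library correlated best with its own number. Deviations from a group mean depend on each other, so these correlations cannot decide whether the libraries were paired. The main test did not take the numbers as a pairing. With the replicate block, the unadjusted edgeR p was 0.054 for Emilin1, 0.055 for Fbn1 and 0.068 for Eln, against 0.195, 0.603 and 0.234 in the main test. With the longest transcript, the level per kilobase was 1291 for Eln, 226 for Fbln5, 56.2 for Efemp2 and 134 for Emilin1. With 3 libraries a group, the spread between libraries and not depth limits the values.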

Other observations

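Over the 6 libraries, the genes whose relative log2 level lay closest to that of Eln were no elastic fibre genes. Among 7889 genes with a mean log2 CPM of at least 4, the 5 closest were Gramd4, Glipr2, Acsl4, Heg1 and Ptprk, with a mean absolute difference from Eln of 0.08 to 0.11 on the log2 scale, against a median of 0.29 over all these genes. Gramd4 had 29.8, 19.5 and 19.5 CPM in WT 1, 2 and 3 and 22.4, 16.5 and 17.6 CPM in knockout 1, 2 and 3. Heg1, a receptor of vessel formation, had 124, 63.9 and 65.8 CPM in WT and 102.4, 60.1 and 67.1 CPM in the knockout. Since the 5 genes were chosen for their likeness to Eln, their order of libraries, with WT 1 the highest and knockout 1 the next, follows from that choice. Of the elastic fibre genes the closest to Eln was Lox at 0.17, followed by Fbln5 at 0.19, and the farthest was Mfap4 at 0.44. Ranked by closeness, with Eln itself first, Lox was at place 128 and Fbln5 at 332. Emilin1, Efemp2 and Fbn1 were at places 637, 822 and 981, and Loxl1, Fbln2 and Mfap4 at 4904, 7230 and 7577.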
